A study of Mus musculus with 6 samples.

Results

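The G2 and mitosis genes are 40 genes that a dividing cell needs to enter mitosis, to build the spindle, to check and separate its chromosomes and to split into 2 cells. They were taken as a fixed list of gene names, and each was read from 1 probe set of the array, the one with the highest mean signal over all 6 arrays among those named for that gene alone. A total of 39 of the 40 were measured, out of 18193 genes, and Ccnb1, which encodes cyclin B1, is not analysed here because the table of probe sets and genes names no probe set for it alone. The study profiled RNA of microglia, the resident macrophages of the central nervous system, sorted as CD11b-positive cells from the lumbar spinal cord of male mice at 90 days of age. RNA from 3 pools of SOD1 G93A mice and from 3 pools of WT littermates, each pool of at least 6 mice, was hybridised to 1 array each, and both genotypes shared the B6SJL background, the tissue, the age and the sort. SOD1 G93A mice carry many copies of a human SOD1 transgene with the G93A mutation of familial amyotrophic lateral sclerosis (ALS), expressed in all cells and not in microglia alone, and at this age they are at the early symptomatic stage. As each array is a pool, p-values measure the spread between pools and not between mice.

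Cyclin-dependent kinase 1 (Cdk1) with cyclins A2 and B starts mitosis once phosphatases of the Cdc25 family remove its inhibitory phosphates, and Polo-like and Aurora kinases act beside it. The anaphase-promoting complex (APC/C) ends mitosis by marking cyclin B for destruction, and the spindle checkpoint holds it back until each chromosome is attached. Transcription of these genes is low in resting cells, where the DREAM complex represses them, and rises in G2 through B-Myb, NF-Y and Foxm1. This control acts largely through 2 short promoter elements, the cell cycle genes homology region (CHR) and the CCAAT box. Microglia of a healthy adult divide rarely, and proliferation in the spinal cord of ALS model mice is a known feature of the disease. The array measures RNA of a cell population, so that more cells in division and more RNA per dividing cell cannot be told apart.

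The probe sets of the 39 genes had a mean log2 signal between 4.72 for Cdc25c and 10.83 for Incenp, and 38 of the 39 were above 5, below which 22.7% of all genes lay. No detection call was used, and a signal above 5 does not show expression, as the probe set of Rbfox3, a marker of neurones, was at 7.20 and that of Cd3e, a marker of T cells, at 5.96. At 90 days 0 of the 39 passed the test between SOD1 G93A and WT (limma, adjusted p under 0.05), while 6.63% of all genes did and 4.09% did so as higher in SOD1 G93A. Before adjustment 10 of the 39 had a p under 0.05, all of them higher in SOD1 G93A, where 21.6% of all genes had such a p and 12.7% had it in that direction. By the methods' t-test 0 of the 39 had an unadjusted p under 0.05, against 14.8% of all genes. The log2 fold change, SOD1 G93A minus WT, was above 0 in 30 of the 39 and in 54.4% of all genes. Its median over the 39 was 0.21, against 0.02 over all genes, and it ran from -0.17 for Cdca8 to 0.85 for Bub1. The 3 SOD1 G93A arrays all lay above the 3 WT arrays in 9 of the 39 and in 16.6% of all genes, and they all lay below in 0 of the 39 and in 10.9% of all genes.

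WT array 1 stood apart from the other WT arrays. Of the 39 genes, 35 were lower in it than in both other WT arrays (89.7%, against 31.2% of all genes), and in 32 it was the lowest of the 6 arrays (82.1%, against 17.1% of all genes). The median over the 39 of the mean of WT arrays 2 and 3 minus WT array 1 was 0.58 on the log2 scale, against -0.03 over all genes. With all 3 WT arrays, the SD between them had a median of 0.34 over the 39, against 0.14 between SOD1 G93A arrays, and over all genes the medians were 0.14 in both genotypes. Without WT array 1 the median log2 fold change of the 39 dropped to 0.03, against 0.04 over all genes. Then 21 of the 39 were above 0, against 56.9% of all genes, and 0 passed the test. As this array was low in most of the 39, a drop follows from its values. The median was 0.35 without WT array 2 and 0.34 without WT array 3, against 0.01 and 0.025 over all genes. The SOD1 G93A arrays all exceeded WT arrays 2 and 3 in 9 of the 39 and in 23.8% of all genes, so that this count was at the background. The 9 were the same that lay above all 3 WT arrays, namely Cdk1, Melk, Pbk, Nek2, Bub1, Ttk, Aurkb, Cenpe and Tpx2. For Tpx2 the margin over WT array 1 vanished on rounding, as this array and SOD1 G93A array 2 were both at 6.325.

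**Figure D1:**
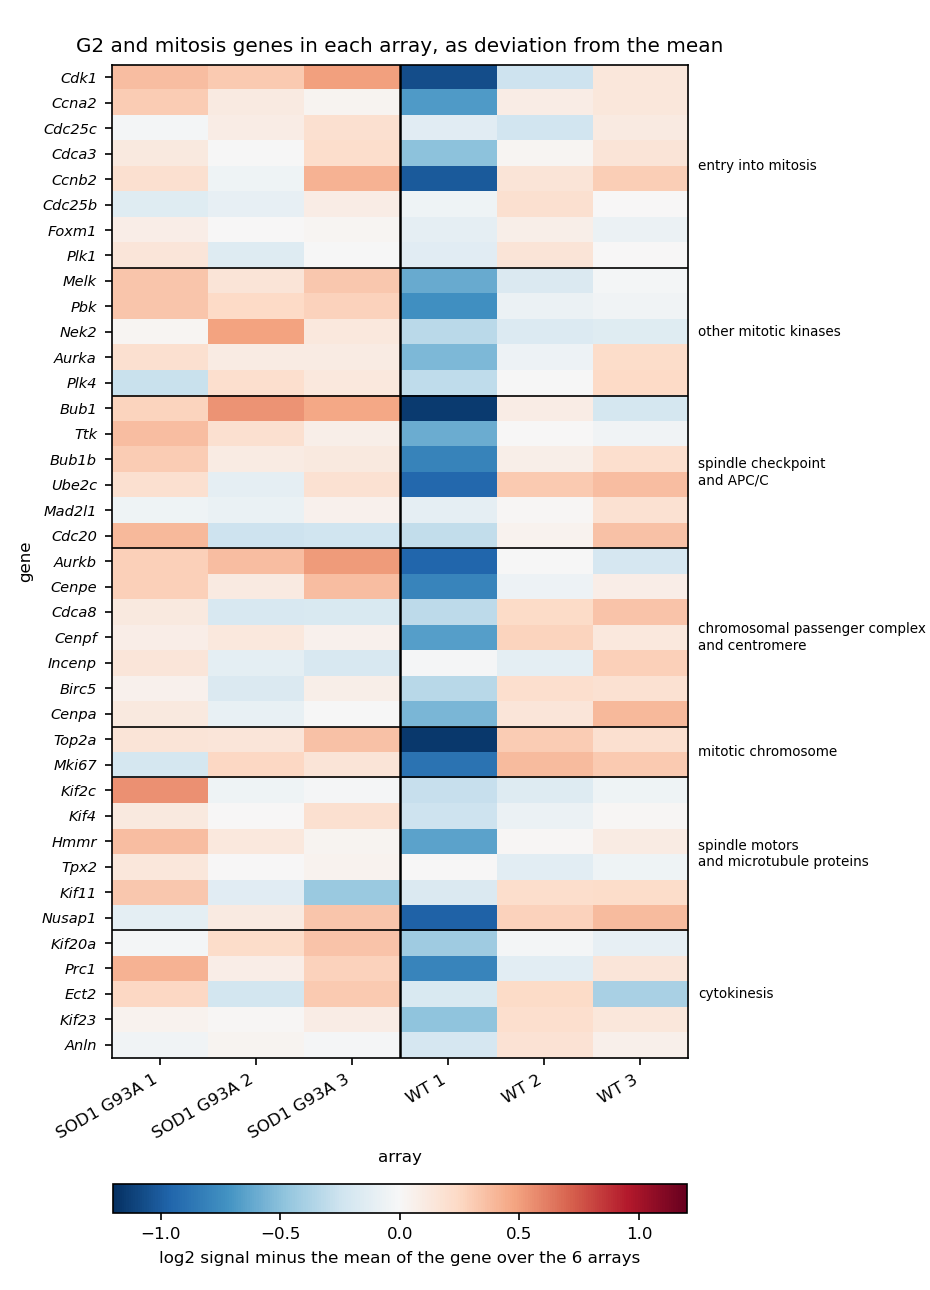
Heat map of the 39 measured genes (rows, grouped by role) in the 6 arrays (columns), each value being the log2 signal minus the mean of that gene over the 6 arrays. The column of WT array 1 is the lowest of the 6 in 32 of the 39 genes.

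Genes of entry into mitosis were led by Cdk1, the kinase that drives it. The Cdk1 log2 signals were 8.09, 8.03 and 8.21 in SOD1 G93A arrays 1, 2 and 3, and 6.65, 7.47 and 7.85 in WT arrays 1, 2 and 3. The genotypes did not overlap, although WT array 3 came close to the SOD1 G93A arrays and the WT arrays spread over a wider range than these. The difference was 0.79 ± 0.26 (SE, n = 3 and 3), a fold of 1.73, with a 95% confidence interval from 0.20 to 1.38 and an adjusted p of 0.113 by limma. Without WT array 1 it was 0.45 with an adjusted p of 0.114 by limma. Cyclin A2 (Ccna2) and cyclin B2 (Ccnb2) gave 0.30 and 0.37, and without WT array 1 they gave 0.04 and -0.04. The phosphatases Cdc25b and Cdc25c, the kinase Plk1, the transcription factor Foxm1 and Cdca3, which promotes the destruction of Wee1, lay between -0.10 and 0.21, and their groups overlapped.

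The other mitotic kinases were all above 0, with a median of 0.42 over 5 genes. Melk, a kinase of dividing and progenitor cells, had log2 signals of 6.16, 5.98 and 6.16 in SOD1 G93A and of 5.23, 5.65 and 5.81 in WT. All SOD1 G93A arrays lay above all WT arrays. The difference was 0.54 ± 0.16 (SE, n = 3 and 3), with an adjusted p of 0.0785 by limma. Pbk, a kinase active in mitosis, had log2 signals of 8.87, 8.78 and 8.81 in SOD1 G93A and of 7.79, 8.46 and 8.49 in WT. The SOD1 G93A arrays lay close together, above WT arrays 2 and 3, which were also close to each other. The difference was 0.57 ± 0.18 with an adjusted p of 0.105 by limma, and 0.34 without WT array 1. Nek2, a kinase of centrosome separation, gave 0.42 and kept 0.36 without WT array 1. Aurora kinase A (Aurka), which acts at the spindle poles, gave 0.26 and 0.05 without WT array 1, and Plk4, the kinase of centriole duplication, gave 0.04.

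Bub1, a kinase of the spindle checkpoint, had the largest difference of the 39. The Bub1 log2 signals were 6.10, 6.36 and 6.29 in SOD1 G93A and 4.68, 5.92 and 5.61 in WT. The groups did not overlap, and WT array 1 was by far the lowest array. The difference was 0.85 ± 0.27 (SE, n = 3 and 3), a fold of 1.80, with an adjusted p of 0.108 by limma, and it was 0.48 without WT array 1. Bub1 was the 1 gene of the 39 that reached the fold minimum of the study's methods at an unadjusted p under 0.05 by limma. Of all 18193 genes 280 did so in each direction. By the methods' t-test 0 of the 39 reached it, against 254 of the 18193 as higher and 170 as lower. Ttk, the checkpoint kinase also known as Mps1, gave 0.42, and Bub1b, which encodes BubR1, gave 0.35, and without WT array 1 they gave 0.23 and 0.03. Another probe set of Bub1b gave 0.45 with all arrays. Mad2l1, which inhibits the APC/C while chromosomes are unattached, and Cdc20, its activator, gave -0.05 and -0.06. Ube2c, the ubiquitin-conjugating enzyme that works with the APC/C, gave 0.17 with all arrays and -0.25 without WT array 1.

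Aurkb encodes Aurora kinase B, the enzyme of the chromosomal passenger complex, which corrects faulty attachments of chromosomes. The Aurkb log2 signals were 5.92, 6.00 and 6.14 in SOD1 G93A and 4.68, 5.63 and 5.44 in WT. Every SOD1 G93A array was higher than every WT array, with WT array 1 again the lowest. The difference was 0.77 ± 0.22 (SE, n = 3 and 3), with an adjusted p of 0.0752 by limma, and 0.49 without WT array 1, with an adjusted p of 0.0634. Its partners in the complex, survivin (Birc5) and borealin (Cdca8), gave -0.04 and -0.17. Incenp, the scaffold of the complex, gave -0.11 with the chosen probe set and 0.67 with another, so that its difference is not settled. Whether the subunits differ from each other was not tested. At the centromere, the motor Cenpe gave 0.51, Cenpf gave 0.17 and Cenpa, the histone H3 variant that marks centromeres, gave 0.01. With the same probe sets these became 0.24 for Cenpe, -0.11 for Cenpf and -0.26 for Cenpa without WT array 1. Another probe set of Cenpf gave 0.38 with all arrays.

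Top2a and Mki67 are the usual markers of proliferating cells. Top2a, the topoisomerase that untangles sister chromatids, had log2 signals of 8.70, 8.69 and 8.89 in SOD1 G93A and of 7.39, 8.85 and 8.73 in WT. WT arrays 2 and 3 lay within the range of the SOD1 G93A arrays, and WT array 1 lay below all other arrays. The difference was 0.44 ± 0.33 (SE, n = 3 and 3), with an adjusted p of 0.515 by limma, and it was -0.03 without WT array 1. Mki67, which encodes the Ki-67 protein that coats mitotic chromosomes, had log2 signals of 9.13, 9.59 and 9.50 in SOD1 G93A and of 8.45, 9.72 and 9.66 in WT. Its highest values were those of WT arrays 2 and 3. The difference was 0.13 ± 0.31, with an adjusted p of 0.863 by limma, and it was -0.28 without WT array 1.

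**Figure D2:**
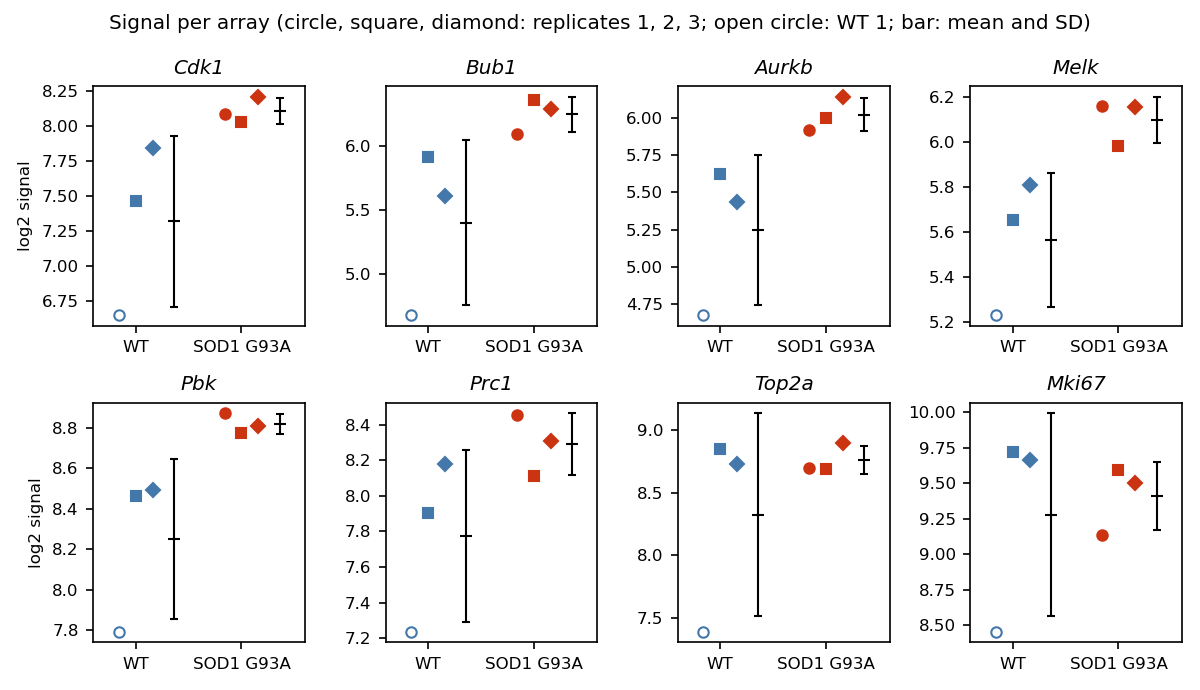
Log2 signal (vertical axis, a separate scale in each panel that does not start at 0) of 8 genes in the 3 WT and 3 SOD1 G93A arrays, with the mean and SD of each genotype beside the points. WT array 1, the open circle, is the lowest array in all 8 panels, and the other WT arrays lie below the SOD1 G93A arrays for Cdk1, Bub1, Aurkb, Melk and Pbk and among or above them for Top2a and Mki67.

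Among spindle motors and microtubule proteins 5 of 6 were above 0, with a median of 0.21. Kif2c, which shortens microtubules at the centromere, Kif4, a motor of chromosome arms and of the spindle midzone, and Hmmr, a protein of the spindle poles, gave 0.32, 0.21 and 0.35. Kif4 and Hmmr gave 0.14 and 0.12 without WT array 1, and Kif2c gave 0.13 without SOD1 G93A array 1. Tpx2, which activates Aurora kinase A, gave 0.12 with the chosen probe set and from 0.04 to 0.52 with the others. Nusap1, which bundles spindle microtubules, gave 0.21. Kif11, the motor that pushes the spindle poles apart, gave -0.17, and 0.01 without SOD1 G93A array 3. Nusap1 turned to -0.22 without WT array 1. The 5 genes of cytokinesis had a median of 0.23. Prc1, which bundles the microtubules of the spindle midzone, had log2 signals of 8.45, 8.11 and 8.31 in SOD1 G93A and of 7.24, 7.90 and 8.18 in WT. The ranges overlapped, since WT array 3 exceeded SOD1 G93A array 2. The difference was 0.52 ± 0.22 (SE, n = 3 and 3), with an adjusted p of 0.214 by limma, and 0.25 without WT array 1. Kif20a and Kif23, motors of the midzone, gave 0.36 and 0.10, with 0.24 and -0.11 without WT array 1, and Ect2 and Anln, which set up the contractile ring, gave 0.23 and -0.02. Ect2 gave 0.09 without WT array 3, 0.13 without SOD1 G93A array 3 and 0.40 without WT array 2 or without SOD1 G93A array 2.

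**Figure D3:**
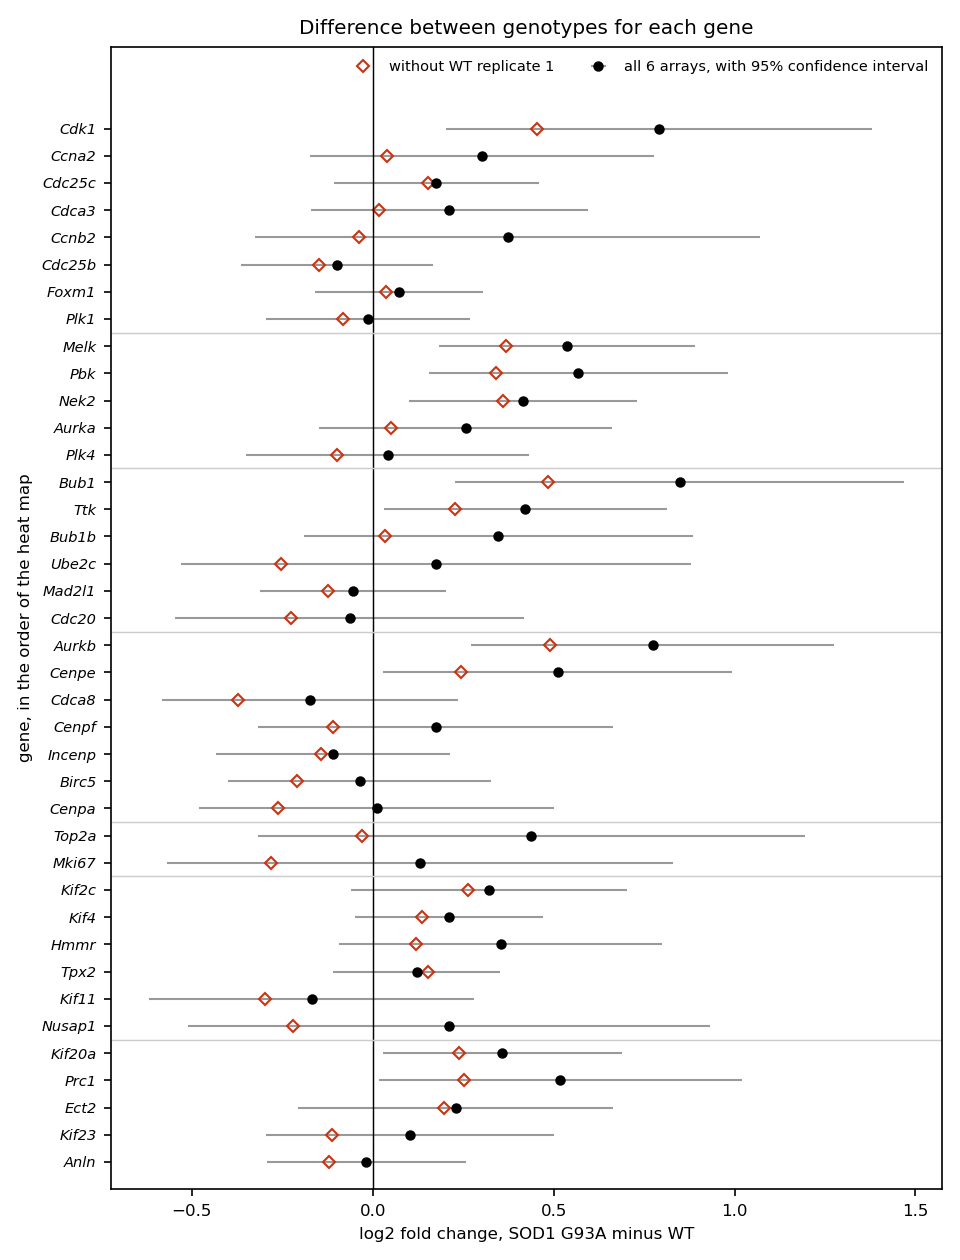
Log2 fold change, SOD1 G93A minus WT, of the 39 genes in the order of the heat map, as filled circles with their 95% confidence interval, and as open diamonds for the fit without WT array 1. Leaving that array out moved 38 of the 39 genes to the left, as follows from its low signal in them. For Cdk1, Melk, Pbk, Nek2, Bub1 and Aurkb the diamond stayed above 0.3.

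The array holds a further 50 probe sets for 26 of the 39 genes. Of these 38 had a log2 fold change above 0, against 50.6% of all 45037 probe sets, and 0 passed after adjustment over the 45037, of which 4.64% did. The second probe set of Aurkb, at a mean log2 signal of 4.855, gave 0.47 ± 0.12 (SE, n = 3 and 3), against 0.77 ± 0.22 with the chosen one. That of Bub1, at a mean log2 signal of 3.90, gave 0.28 ± 0.16. Probe sets of Incenp disagreed. The chosen one, of a type that can bind related transcripts, gave -0.11 ± 0.14, another gave 0.67 ± 0.17 with an adjusted p of 0.0582 by limma over all probe sets, and the remaining 3 lay between -0.15 and 0.18. Cdc20 gave -0.06 with the chosen probe set and 0.31 and 0.10 with the others. Other probe sets gave 0.45 and 0.14 for Bub1b, 0.38 and 0.13 for Cenpf, and 0.04, 0.345 and 0.52 for Tpx2. In those at 0.45 and 0.38, all SOD1 G93A arrays lay above all WT arrays. Other probe sets of Ccna2 (0.04) and Top2a (-0.01 and 0.07) gave less than the chosen ones. Values without WT array 1 are those of the chosen probe sets alone.

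The promoters of these genes are shown to let a reader see the elements through which G2 transcription is known to act. RefSeq promoter windows from 250 bases before to 50 after the start site (build GRCm38.p6) were found for 32 of the 40 genes, with 34 windows. The CHR was searched as TTTGAA, with TTCGAA as its other form, the CCAAT box by its own letters and the core of an E2F site as TTTCGCG, with TTTGGCG as a further form, and likewise with TTTCCCG as another form, and lastly with TTTGCCG allowed. Each was searched on both strands and independently, so that matches of different motifs may share bases. A CHR match was found in 26 of the 34 windows (76.5%), against 19.2% of the 32851 windows of all genes, and a CCAAT box in 27 of the 34 (79.4%, against 37.4%). Both were in 24 windows (70.6%, against 7.52%). In the 100 bases around the start site, a range chosen after the positions were seen, 24 of the 34 windows held a CHR match (70.6%, against 5.31%). Before the start site alone, 35.3% of the 34 windows held a CHR match, against 17.1% of all windows. The CHR share is not particular to these genes, as 67.2% of the windows of other G2 and mitosis genes, listed further on, held a match. Windows of S phase genes held a CHR match in 17.9% and a CCAAT box in 57.1%. The E2F core was in 42.9% of the windows of S phase genes, in 14.7% of the 34 windows and in 6.70% of all windows. In windows of the other G2 and mitosis genes it was in 23.4%. A match is a stretch of letters and not a measured binding site.

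The 3 windows printed are those of the genes with a CHR match before the start site and the smallest adjusted p, and each shows the 150 bases before the start site, 5′ to 3′ on the strand of the gene, with CHR and CCAAT matches on either strand in capitals.
Cdk1: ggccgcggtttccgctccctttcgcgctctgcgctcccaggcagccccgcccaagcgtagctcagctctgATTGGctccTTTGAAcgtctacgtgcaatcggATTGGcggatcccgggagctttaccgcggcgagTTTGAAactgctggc
Prc1: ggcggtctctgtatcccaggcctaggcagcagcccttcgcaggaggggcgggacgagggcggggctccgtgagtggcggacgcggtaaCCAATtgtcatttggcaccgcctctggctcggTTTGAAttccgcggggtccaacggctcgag
Kif2c: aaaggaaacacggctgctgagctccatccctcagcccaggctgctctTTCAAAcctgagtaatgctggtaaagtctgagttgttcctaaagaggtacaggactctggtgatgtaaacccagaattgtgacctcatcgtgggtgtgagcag
These stretches are at chr10:69352913-69353062 (minus strand) for Cdk1, at chr7:80294326-80294475 (plus strand) for Prc1 and at chr4:117178773-117178922 (minus strand) for Kif2c. Cdk1 holds 2 CHR matches, whose first bases are at -71 and -15 from the start site, and a CCAAT box read on the other strand at -80 and at -48. Prc1 holds a CCAAT box at -62 and a CHR match at -30, which is 32 bases further on. Kif2c holds a CHR match on the other strand at -103 and no CCAAT box in its window. These 3 genes gave log2 fold changes of 0.79, 0.52 and 0.32, none past the test, and Melk and Aurkb, with the smallest adjusted p-values of the 39, are not among them, as the Melk window held no CHR match and Aurkb is not in the promoter table.

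**Figure D4:**
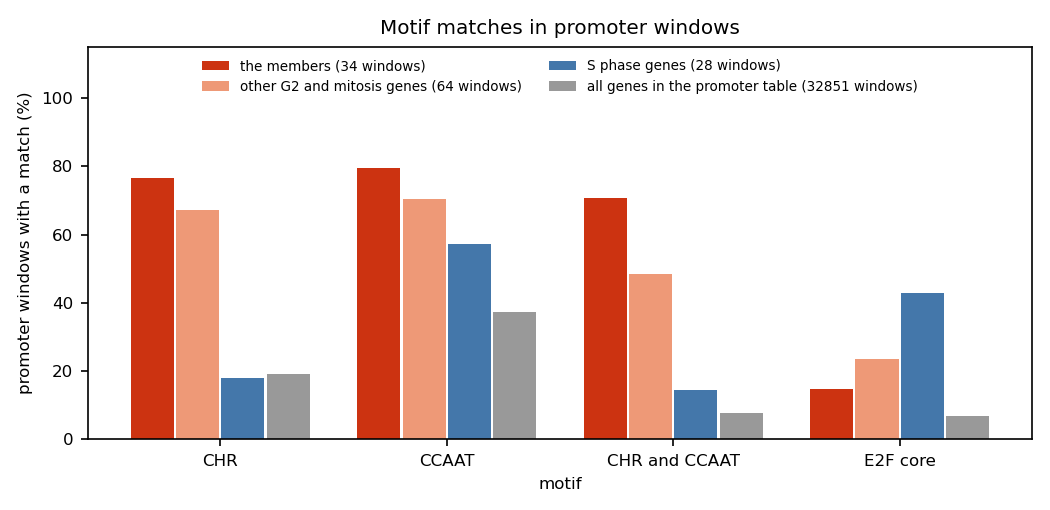
Share of promoter windows (vertical axis, in percent) with a match to each motif, for the members, that is the G2 and mitosis genes described here, for other G2 and mitosis genes, for S phase genes and for all genes of the RefSeq promoter table. CHR matches are in 76.5% of the windows of the members, in 67.2% of those of other G2 and mitosis genes and in 19.2% of all windows.

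Other genes of the pathway were read from lists that overlap with none of the 39. The 70 further G2 and mitosis genes had a median log2 fold change of 0.17, and of 0.06 without WT array 1, against 0.04 over all genes. Of the 70, 3 passed with all arrays, all higher in SOD1 G93A. These were Cenpi, a centromere protein (0.76 ± 0.15, SE, n = 3 and 3, adjusted p = 0.0227 by limma), Zwilch, a checkpoint protein of the kinetochore (0.75 ± 0.17, adjusted p = 0.0353) and Iqgap3, a scaffold protein of dividing cells (0.50 ± 0.12, adjusted p = 0.0466). With 1 array left out, 3 passed without SOD1 G93A array 1, 3 without WT array 1 (1 higher, Cenpi, and 2 lower), 1 without SOD1 G93A array 3, WT array 2 or WT array 3, and 0 without SOD1 G93A array 2. Of all genes 6.09% passed without SOD1 G93A array 1, 6.41% without WT array 1 and 1.97% to 2.51% without any other array. Counts with 1 array left out, here and for the lists below, stand beside these shares. Of the 17 subunits and regulators of the APC/C 2 passed, both higher, Anapc15, which helps to release the checkpoint (0.87 ± 0.11), and Fzr1, the activator of late mitosis and G1 (0.52 ± 0.13). Anapc15 passed whichever array was left out, and Fzr1 did not pass in any of these 6 fits, so that 1 of the 17 passed in each. Of 23 genes of DREAM, E2F and NF-Y 0 passed by limma, with 6 at an unadjusted p under 0.05, and E2f1 and Myb gave 0.44 and -0.86. Without WT array 1, 1 of the 23 passed, Myb at -1.08.

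S phase genes act in DNA replication, before mitosis. Of 29, 8 passed and all were higher in SOD1 G93A, namely Pcna, Tk1, Gins1, Mcm3, Lig1, Mcm2, Gins2 and Pola1, and the median log2 fold change was 0.33. Pcna, the sliding clamp of DNA polymerases, had log2 signals of 10.29, 10.25 and 10.39 in SOD1 G93A and of 9.32, 9.52 and 9.43 in WT. Its 3 WT arrays lay close together, with WT array 1 the lowest. The difference was 0.88 ± 0.11 (SE, n = 3 and 3, adjusted p = 0.00327 by limma), and 0.80 ± 0.13 for Tk1, the thymidine kinase (adjusted p = 0.0093). Without WT array 1 the median was 0.28 and 7 passed, of which 6 were higher. With another array left out fewer passed, 3 without SOD1 G93A array 1 and 2 without SOD1 G93A array 2 or 3 or without WT array 2 or 3, and Pcna and Tk1 passed in each of these fits. The share of all genes that passed fell as well, from 6.63% to 6.09% without SOD1 G93A array 1 and to between 1.97% and 2.51% in the others. WT array 1 was the lowest of the 6 arrays for 14 of the 29 genes, against 32 of the 39 and 44 of the 70 other G2 and mitosis genes.

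Of 10 CDK inhibitors and D cyclins 2 were higher and 2 lower. Cdkn1a, which encodes p21 and restrains cyclin-dependent kinases, was higher by 0.79 ± 0.11 (SE, n = 3 and 3, adjusted p = 0.00591 by limma), with log2 signals of 10.53, 10.50 and 10.29 in SOD1 G93A and of 9.58, 9.68 and 9.69 in WT. Cdkn1b, which encodes p27, an inhibitor of resting cells, fell by 0.72 ± 0.10 (adjusted p = 0.00608), from 8.26, 8.32 and 8.18 in WT to 7.58, 7.53 and 7.47 in SOD1 G93A. Neither overlapped between genotypes, and both passed whichever array was left out. Cdkn2c, an inhibitor of Cdk4 and Cdk6, gave 0.49 and Cdkn1c, which encodes p57, gave -0.71. Cdkn2c and Cdkn1c passed without SOD1 G93A array 1 and did not pass when any other array was left out, and 2 of the 10 genes passed without SOD1 G93A array 2 or 3 or without WT array 2 or 3.

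**Figure D5:**
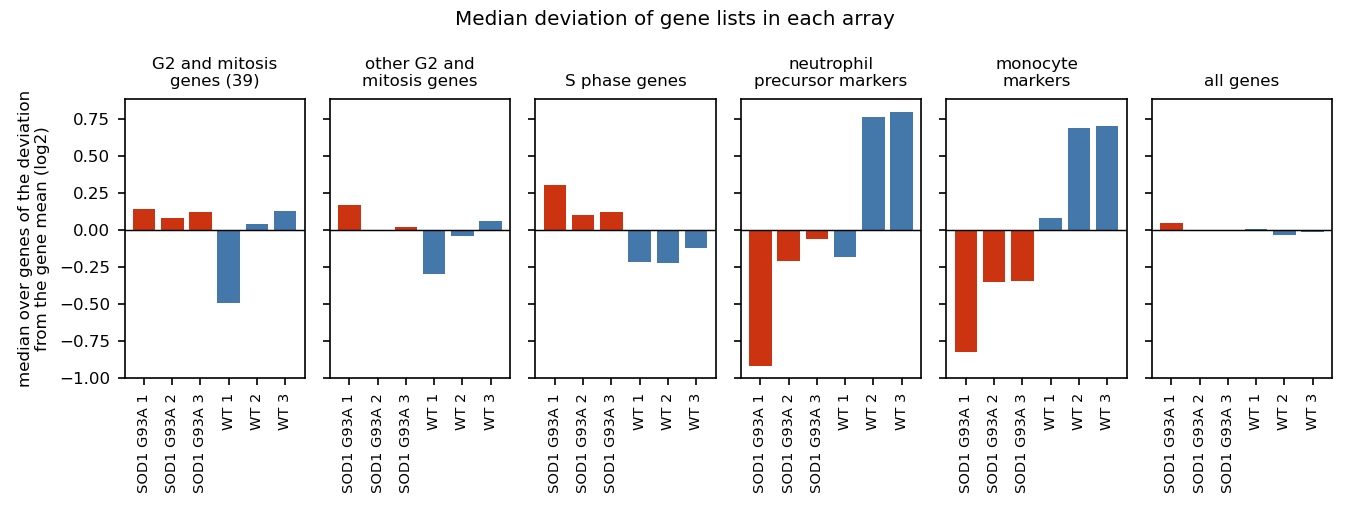
Median over the genes of a list of the deviation from the mean of each gene over the 6 arrays (vertical axis, log2 scale), in each array (bars, SOD1 G93A red, WT blue), for 6 lists. WT array 1 stands at -0.49 for the G2 and mitosis genes, and SOD1 G93A array 1, the lowest array for neutrophil precursor and monocyte markers at -0.92 and -0.82, stands at 0.14 for the G2 and mitosis genes.

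CD11b also marks cells other than microglia, some of which divide, and their markers moved with genotype and with array. The 11 microglia markers had a median log2 signal of 11.87, against 6.62 over all genes, and 2 of them, Trem2 and Fcrls, were higher (1.28 and 1.07) and Sall1 was lower (-0.83) in SOD1 G93A. Itgam, which encodes CD11b itself, gave -0.02 and Aif1, which encodes Iba1, 0.34 (adjusted p = 0.12 by limma). The list of 17 neutrophil precursor markers also holds genes of mature neutrophils, such as S100a8 and S100a9, and does not mark dividing cells alone. Of the 17, 0 were higher and 4 lower in SOD1 G93A, with a median of -0.81, among them proteinase 3 (Prtn3, -1.41) and histidine decarboxylase (Hdc, -1.24). Myeloperoxidase (Mpo, -1.45) and neutrophil elastase (Elane, -0.30) did not pass. The calls of this list depend on single arrays, as 11 of the 17 passed without WT array 1, 2 without SOD1 G93A array 1, and 0 without any other 1 array. Of all genes 6.41%, 6.09% and 1.97% to 2.51% passed in the same order. The summed linear signal of the 17 was 59900, 87100 and 92000 in SOD1 G93A arrays 1, 2 and 3, and 79600, 136000 and 134000 in WT arrays 1, 2 and 3. This sum rests on the brightest genes, such as S100a8 and S100a9 at mean log2 signals of 14.32 and 14.19. Mpo and Elane were at 7.94 and 7.50, so that the sum is not a level of precursors. All 17 were lower in WT array 1 than in both other WT arrays, as 35 of the 39 G2 and mitosis genes were. In SOD1 G93A array 1, 16 of the 17 were lower than in both other SOD1 G93A arrays, as were 10 of the 39 G2 and mitosis genes (25.6%) and 31.2% of all genes.

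Of 8 monocyte markers 5 were lower, with a median of -1.01 and a summed linear signal from 8470 to 14100 in SOD1 G93A and from 15300 to 26500 in WT, and 7 of the 8 were lower in WT array 1 than in the other WT arrays. Without WT array 1, 7 of the 8 passed, and 2 or 3 passed without SOD1 G93A array 2 or 3 or without WT array 2 or 3. Among 6 markers of blood progenitors Cd34 was higher (0.998), while Kit gave 0.03 at a mean log2 signal below 5 and Myb gave -0.86. The median of the 6 was -0.07, with 3 above 0. Cd34 did not pass without SOD1 G93A array 2 or 3 or without WT array 3, and 2 of the 6 passed without WT array 1. Of 8 markers of oligodendrocyte precursors, which also divide in the adult cord, Cspg4 was higher (0.81) and Pdgfra gave -0.25. Cspg4 went against most of its list, as the median of the 8 was -0.18 with 2 above 0. Cspg4 passed whichever array was left out, and 2 of the 8 passed without WT array 1. Of the other lists, 2 of 9 oligodendrocyte, 4 of 9 astrocyte, 3 of 8 neurone and 1 of 10 lymphocyte markers were lower, and 1 of 8 endothelial and mural markers was higher. With 1 array left out these counts were 1 to 2, 0 to 4, 2 to 4, 0 to 1 and 0 to 1 in the same order. WT array 1 was the highest of the 6 arrays for 7 of the 9 astrocyte, 7 of the 9 oligodendrocyte and 5 of the 8 oligodendrocyte precursor markers, against 20.6% of all genes. Its median deviation from the mean of each gene was 1.09, 0.53 and 0.28 on the log2 scale in these lists, in the same order. No marker is at 0 on this scale. The part of these cells in the level of the mitotic genes, in WT array 1 or elsewhere, was not tested.

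Control probe sets at both ends of 2 transcripts give a sign of RNA quality. The Gapdh control probe sets gave a 3′ minus 5′ difference in log2 signal of 4.12 ± 0.59 in SOD1 G93A and 4.89 ± 0.11 in WT (SD, n = 3 each, p = 0.1 in an exact two-sided permutation test, the smallest p that 3 against 3 allows). WT array 1, at 5.01, had the largest difference of the 6 arrays, and WT arrays 2 and 3 had 4.79 and 4.87. For beta-actin the difference was 2.67 ± 0.72 in SOD1 G93A and 3.42 ± 0.49 in WT (SD, n = 3 each, p = 0.2 in the same exact test), and the genotypes overlapped. With the Gapdh difference as a covariate the median log2 fold change was 0.09 over the 39 and 0.06 over all genes, and 0 of the 39 and 0.517% of all genes passed. Its part in the result was not tested.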

How the data were processed

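RNA of CD11b-positive lumbar microglia was measured on 6 Affymetrix mouse whole-genome arrays, 3 of SOD1 G93A and 3 of WT mice, grouped by the titles of the samples. The authors deposited 1 log2 signal for each probe set and array, and the submitters' processing notes name RMA and Partek, with no version. The paper's methods name another Affymetrix algorithm, and a double amplification of little RNA where the labels give a standard protocol, so that the exact steps are not settled. Amplification and RMA can both reduce fold changes, above all at low signal. Array medians lay between 5.93 and 5.97 on the log2 scale. Depth does not apply to arrays, whose number limits the precision.

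Genotype was tested with limma 3.58.1 (lmFit, then eBayes without trend) in R 4.3.3 on the 45037 non-control probe sets, of which 34945 had 1 gene symbol, 932 several and 9160 none. Each of 18193 genes was read from its brightest probe set named for that gene alone. A gene passed when its p, adjusted by Benjamini-Hochberg across the 18193 genes, was under 0.05, and other probe sets were adjusted across all 45037. The script was tested on simulated data. By rule, values per array were given for each of the 39 genes that passed, for the 6 of largest difference that did not and for Cdk1, Top2a and Mki67. Of other lists up to 4 genes that passed, or 2 where 0 did, were named, besides fixed markers. The S phase list departs from this rule, as all 8 that passed were named. Promoters came from the RefSeq table (GRCm38.p6). The 40 genes, the lists and the tests were chosen with earlier results of these data known. Alternatives were other probe sets, filters, centring, array weights, other tests, the Gapdh difference as a covariate, the array number as a block, and fits with arrays left out.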

Additional observations from a re-analysis of the deposited data

How the results depend on the processing

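Across 18 other settings the median log2 fold change of the 39 genes stayed above 0, between 0.014 without both arrays numbered 1 and 0.351 without WT replicate 2, but it was no higher than the median over all genes without both arrays numbered 1 (0.016 over all genes) and without WT replicate 1 (0.034 against 0.038). The count of the 39 that passed stayed at 0 with 1 array left out in turn, where 1.97% to 6.41% of all genes passed. It was 0 with trend and robust eBayes (5.63% of all genes), median-centred arrays (6.98%) and adjustment over all probe sets (5.61%). A mean signal of at least 5 kept 38 of the 39 and one of at least 7 kept 20. Of these 0 passed, against 9.92% and 17% of all genes kept. The count was also 0 with the Gapdh covariate and by the methods' t-test. The adjusted t-test passed 0 of all 18193 genes and the Gapdh covariate 0.517% of them, so that their counts of 0, here and for the other lists below, say nothing of stability. The count for the 39 was 1 with the mean of all probe sets (Aurkb), 1 without suffixed probe sets (Incenp) and 1 with array weights (Aurkb). Of all genes 6.9%, 6.3% and 10% passed in the same order. It was 1 for limma at the methods' threshold, which 280 of the 18193 genes reached in each direction. Without both arrays numbered 1 it was 2 higher (Bub1 and Aurkb) and 1 lower (Cdca8), where 10.1% of all genes passed. The cause of these changes was not tested.

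Whether the array numbers pair the samples is not settled. The paper states that groups were litter-matched, without saying which pools belong together. The correlations of deviations between same-numbered arrays were 0.44, 0.24 and 0.04. WT array 1 correlated best with SOD1 G93A array 1 and WT array 2 with SOD1 G93A array 3 (0.42). WT array 3 gave 0.04 with both SOD1 G93A arrays 2 and 3. On the second principal component (25.8% of the variance) SOD1 G93A array 1 and WT array 1 stood at 22 and 21.2. The other arrays stood between -16.7 and -7. With the array number as a block, 12.2% of all genes passed and 5 of the 39 did, a share near that background (Cdk1, Melk, Pbk, Bub1 and Aurkb), as did 5 of the other G2 and mitosis genes and 3 of DREAM, E2F and NF-Y.

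Calls in the other lists moved more. With 1 array left out, between 1.97% and 6.41% of all genes passed, against 6.63% with all arrays. Other G2 and mitosis genes had 5 calls without suffixed probe sets, 8 without both arrays numbered 1, 1 at a mean signal of at least 7, 0 with the Gapdh covariate, 0 by the methods' t-test after adjustment, and 0 to 3 with 1 array left out. The APC/C list had 1 call with adjustment over all probe sets, 1 at a mean signal of at least 7, 1 without both arrays numbered 1 and 1 with any array left out, and 0 with the Gapdh covariate and by the t-test. The DREAM list had 1 at a mean signal of at least 7, 1 with array weights, 1 without both arrays numbered 1, and 0 to 1 with 1 array left out. S phase genes had 0 with the Gapdh covariate, 0 by the t-test, and 2 to 7 with 1 array left out. CDK inhibitors and D cyclins had 2 with trend and robust eBayes, 1 with the Gapdh covariate, 0 by the t-test, and 2 to 4 with 1 array left out.

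The log2 fold change of some genes changed sign. With the mean of all probe sets this held for Plk4 (-0.007), Cdc20 (0.117), Incenp (0.129) and Kit (-0.157). Without suffixed probe sets it held for Cdca3 (-0.216), Cdc20 (0.313), Incenp (0.672), Top2a (-0.01) and Hmmr (-0.146), and with centred arrays for Plk1 (0.003). With array weights it held for Ube2c (-0.059), Cenpa (-0.149) and Kit (-0.062). With the Gapdh covariate it held for Plk1 (0.009), Plk4 (-0.198), Ube2c (-0.032), Cdc20 (0.22), Incenp (0.078), Cenpa (-0.035), Mki67 (-0.206), Kif11 (0.238), Nusap1 (-0.222) and Kif23 (-0.017). Without both arrays numbered 1 it held for Ccna2 (-0.04), Ccnb2 (-0.043), Bub1b (-0.031), Ube2c (-0.304), Cenpf (-0.109), Cenpa (-0.316), Mki67 (-0.144), Nusap1 (-0.106), Kif23 (-0.111) and Kit (-0.095).

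With 1 array left out in turn, the lowest and highest values on either side of 0 were -0.038 and 0.612 for Ccnb2, -0.089 and 0.061 for Plk1, -0.1 and 0.183 for Plk4, -0.254 and 0.402 for Ube2c, -0.123 and 0.022 for Mad2l1, -0.277 and 0.095 for Cdc20, -0.111 and 0.351 for Cenpf, -0.208 and 0.007 for Incenp, -0.21 and 0.055 for Birc5, -0.262 and 0.207 for Cenpa, -0.029 and 0.702 for Top2a, -0.281 and 0.351 for Mki67, -0.373 and 0.011 for Kif11, -0.22 and 0.452 for Nusap1, -0.114 and 0.229 for Kif23, -0.122 and 0.063 for Anln, -0.188 and 0.108 for Itgam, and -0.154 and 0.157 for Kit.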
